A study of Mus musculus with 18 samples.

Results

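The genes described here encode the proteins of the cytosolic ribosome. Members were taken from the deposited table by symbol: protein-coding genes named Rpl or Rps followed by a digit, together with Rplp0, Rplp1, Rplp2 and Rpsa. Pseudogenes, the Rps6k kinases and retrogene copies with a mean count under 10 were left out. The rule found 85 of 54347 genes, of which 51 belonged to the large subunit and 33 to the small subunit. The remaining gene, Rps19bp1, entered by its symbol and encodes a nucleolar protein that binds RPS19, not a ribosomal protein. Apart from that minimum, which left out Rpl10l, the rule used symbols and no comparison between groups.

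RNA-seq was performed on mesenchymal stem cells (MSC) grown from the bone marrow of male C57BL/6J mice, adherent progenitors able to enter the bone or fat lineage. In the first experiment cells were untreated (control) or received CK666, which inhibits the Arp2/3 complex that branches actin filaments, or cytochalasin D (CytoD), which caps actin filaments. All cells of the second experiment received an siRNA: a control sequence (siControl, which the labels also call mock), 1 against Arp4 (siArp4), or the latter together with CK666 (siArp4+CK666). Each of the 6 groups held 3 libraries, and a group given siControl and CK666 was not analysed here. The paper states that a primary line made from these mice served all its studies, with 3 distinct preparations per culture condition. P-values therefore measure the spread between these preparations and not between animals.

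Ribosomal proteins assemble in the nucleolus with ribosomal RNA into the large and the small subunit, and most of the proteins are needed in equal amount. Their mRNAs are short, very abundant and commonly begin with a tract of pyrimidines, the TOP motif, through which mTOR signalling and LARP1 set their translation and stability. Unassembled members can act elsewhere, as RPL5 and RPL11 do when they bind MDM2 and raise p53.

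Total estimated counts ran from 18075610 to 24733212 per library. Actl6a, the gene of Arp4, was measured at 720.1, 1126.7 and 840.6 normalized counts in siControl, against 19.04 to 57.23 in siArp4 (log2 fold change -4.42) and 9.516 to 22.89 after both treatments (-5.73). Of 12 markers of marrow mesenchymal cells, 8 had a mean count of at least 100 and Thy1, a defining marker, was at 0. Of 10 blood cell markers none reached 100 and 7 were under 10 (with Cd3e at 0), and all 4 endothelial markers were under 10 (Cdh5 at 0). The summed blood markers ranged from 94.8 to 155.2 normalized counts in CK666 and from 189.9 to 233.1 in control, and from 141.5 to 165.3 in siArp4 and from 114.0 to 332.0 in siControl. They ranged from 239.1 to 275.1 in CytoD and from 108.9 to 349.9 in siArp4+CK666. The summed mesenchymal markers were lower in both groups given CK666 (66119 to 74459 and 64731 to 74503) than in control (130990 to 137120) or siArp4 (118780 to 129430). Sums were 189560 to 199640 in CytoD and 90713 to 136960 in siControl. Cxcl12 (mean 54247 in the first experiment) and Col1a1 (45757) made up much of these sums. Of 10 tested markers 0 were higher (15.3% of all genes) and 7 lower (14.7%) in CK666 against control at a DESeq2 adjusted p below 0.01. In siArp4+CK666 against siArp4, 1 was higher (Cxcl12, 0.61, 3.82% of all genes) and 3 lower (6.07%). The part of either list in the results below was not tested.

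The start sites of 65 of the 85 members were found in RefSeq (GRCm38.p6), and 24 of them (36.9%) held a run of at least 8 pyrimidines beginning with C between 10 bases before and 20 bases after the annotated start, against 10.1% of 27025 genes. The starts of members that carry the results are shown from 10 bases before to 20 bases after the annotated start, with such a run in capitals. Rps26, Rpl27a and Rpl22l1 fell after Arp4 knockdown and hold a run, while Rps27l, Rps16 and Rpl7l1 also fell and hold none. Rplp0 was not called lower and Rpl12 rose with CK666.
Rps26 (chr10:128626487-128626516, minus strand): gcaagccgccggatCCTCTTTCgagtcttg
Rpl27a (chr7:109519185-109519214, plus strand): cgtgagCTCCTCCCTTTTCCCTTTCTgcca
Rpl22l1 (chr3:28805498-28805527, plus strand): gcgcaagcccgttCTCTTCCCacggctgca
Rps27l (chr9:66946076-66946105, plus strand): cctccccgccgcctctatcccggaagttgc
Rps16 (chr7:28350679-28350708, plus strand): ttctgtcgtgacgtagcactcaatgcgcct
Rpl7l1 (chr17:46782637-46782666, minus strand): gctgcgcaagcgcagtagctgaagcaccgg
Rplp0 (chr5:115559457-115559486, plus strand): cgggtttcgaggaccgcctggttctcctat
Rpl12 (chr2:32961702-32961731, plus strand): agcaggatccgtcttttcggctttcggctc

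Of these 8 genes, 3 hold a run. A start annotated a few bases away from the start used in these cells would change which run is found, so no match says only that the letters are not in this window. The ETS core CCGGAAG, searched on both strands from 250 bases before to 50 after the start, was found in 40% of the 65 members and 9.93% of all genes, and is seen at the end of the Rps27l window. TATAAA was found in 10.8% and 15.7%, and AAGATGGC, the core of the YY1 motif, in 9.23% and 3.19%.

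Per length, the members spread widely. Levels in control, as counts per kilobase of the principal transcript scaled to sum to 1000000 in each library, had a median of 1450 with quartiles of 748 and 2086. The highest were Rps12 (5778 ± 288, SD, n = 3), Rps2 (5742 ± 159) and Rplp1 (4742 ± 27.2), which encodes a protein of the stalk that recruits translation factors. Rps27 (12.6 ± 5.05) and Rpl5 (50.5 ± 2.60) stood at the low end with Rpl3l, the striated muscle form of Rpl3, which was at 0 in control. In all, 5 members were under 100. Rpl3l reached no test in any comparison, which left 84 tested members.

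For some members counts also lay on near-identical copies, and the part of this in the spread was not tested. The mouse genome holds many processed copies of these genes, and 497 single-exon genes of the annotation shared at least 20% of the 31-base words of a member, 30 of them with a mean count of at least 10. Over the 18 libraries the Rpl12 gene had a mean count of 1120 while its copy Gm10275 had 30694, so that 96.5% of the sum lay on copies. Rpl5 had a mean of 822 against 21608 on Gm15500. Over 50% of the sum lay on copies for 4 members, Rpl12, Rpl5, Rpl10 (83.8%) and Rpl27a (69.5%), and over 10% for 15, while 64 members had under 1% there. Rps27 (mean 153) was measured beside Rps27rt, a near-identical member with a mean of 9438. The authors' quantification could split reads between such genes, so Rpl12, Rpl5, Rpl10, Rpl27a and Rps27 are uncertain as single genes, and values with the copies added are given where they change a call.

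**Figure D1:**
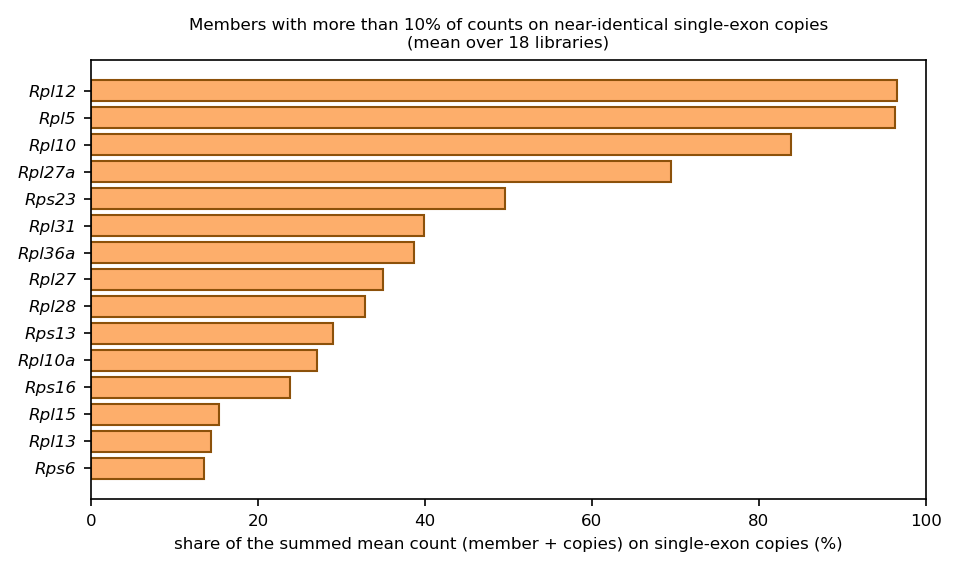
Share of the summed mean count (member plus its single-exon copies, %, horizontal axis) that lay on the copies, for the 15 members above 10%. Rpl12 (96.5%) and Rpl5 (96.3%) had nearly all of their counts on copies.

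Members took 5.17%, 4.81% and 4.91% of the library in control and 5.20%, 5.27% and 5.53% in CytoD. In CK666 the shares were 8.71%, 5.25% and 5.94%. In siControl they were 5.88%, 13.66% and 9.45%. Libraries of siArp4 had 6.27%, 6.30% and 5.27%, and those of siArp4+CK666 had 5.17%, 6.43% and 8.04%. CK666 replicate 1 and siControl replicate 2 thus stood apart from their own groups, and the siControl libraries were the most widely spread of the 6 groups. Shares of the single-exon copies ranged from 0.411% in siArp4+CK666 replicate 1 to 1.215% in CK666 replicate 1, and were 0.421%, 0.815% and 0.612% in siControl against 0.655% to 0.686% in control.

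The members are short. Their median principal transcript was 681 nt long, against 2873 nt for 10646 other protein-coding genes with a mean count of at least 50, and 77.6% of the members against 6.7% of those genes were under 1000 nt. A trend with length ran between libraries of the same group. In siControl replicate 2, other genes under 600 nt lay 0.89 above their mean over the libraries of the experiment on the log2 scale (median of 141 genes), and the class of the longest genes lay 0.54 below it (1160 genes). In siControl replicate 1 the same bins lay 0.61 below and 0.32 above, so the slope turned around within the control group. CK666 replicate 1 had the slope of siControl replicate 2, with 0.54 above and 0.46 below.

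A smooth curve of the other genes over length therefore gave the value that a gene of each member's length would take in each library. In siControl the members' median deviation was -0.40, 1.27 and 0.39 in replicates 1 to 3, and the curve at their lengths stood at -0.44, 0.91 and 0.23. Most of the distance between replicates 1 and 2 thus lay in the curve. After the curve was taken away, the members' median was 0.01, 0.32 and 0.16 in siControl, -0.20, -0.19 and -0.26 in siArp4, and -0.06, 0.01 and 0.10 after both treatments. In the first experiment it was -0.01, -0.07 and -0.04 in control, 0.24, 0.08 and 0.12 in CK666, and -0.15, -0.15 and -0.12 in CytoD. On this scale the 3 groups of the first experiment did not overlap, nor did siArp4 with either other group of the second, while siControl and siArp4+CK666 overlapped. Whether the length trend arose in the libraries or in the cells cannot be told apart, and in bulk RNA fewer cells of a type and less RNA per cell cannot be told apart either.

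**Figure D2:**
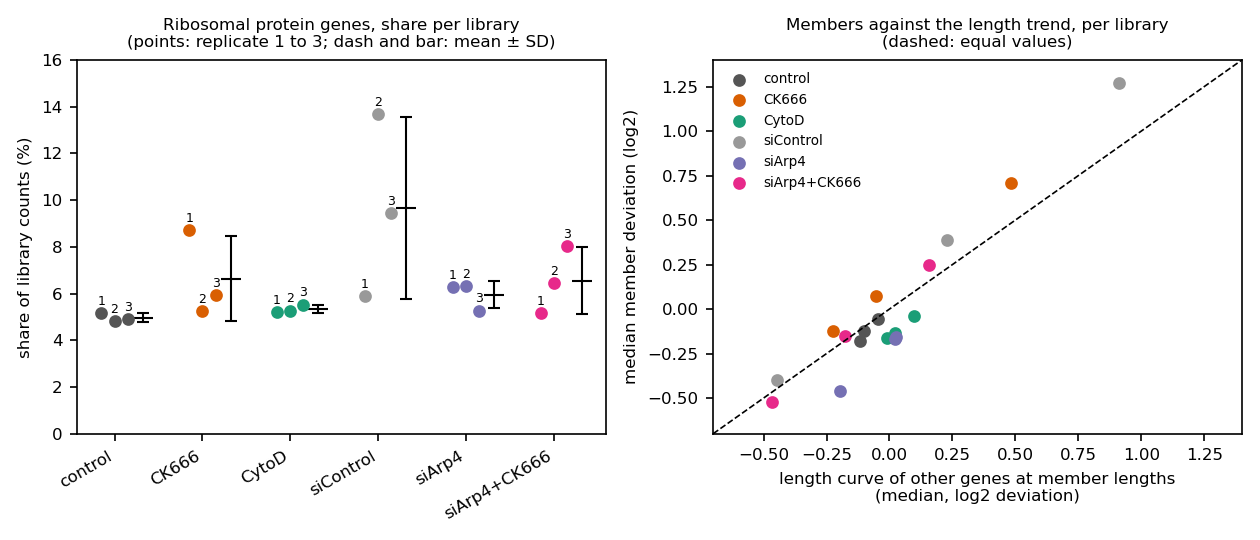
Left, share of library counts on ribosomal protein genes (%) for each replicate, with the group mean and SD (n = 3); siControl ranged from 5.88% to 13.66%. Right, the members' median log2 deviation in each library (vertical axis) against the length curve of other genes at the members' lengths (horizontal axis); the points follow the dashed line of equal values, with siArp4 and CytoD libraries below it.

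Each comparison is given as fitted and with the length curve of every library removed before the fit. A gene was called at an adjusted p below 0.01 in DESeq2, with no minimum fold change, because abundant genes of this kind change little. Shares of all genes are given only for DESeq2 calls as fitted or with the transcript length trend removed. Counts at an unadjusted p below 0.05, in edgeR or with a library left out have no such share beside them. Those counts therefore do not tell whether members moved more often than other genes. The first experiment asked how CK666, which the paper reports to lower filamentous actin in the nucleus, and CytoD, reported to raise it, change transcription. The second asked how depletion of nuclear Arp4 acts alone and with CK666.

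CK666 raised a small number of members. Against control, 4 of 84 were called higher (4.76%, against 15.3% of all genes tested) and 0 lower (14.7% of all genes), and the members' median log2 fold change was 0.38 while that of all genes was 0.01. At an unadjusted p below 0.05 there were 49 higher and 1 lower, and edgeR called 1 higher and 0 lower. Those called were Rpl12, Rps27a, Rpl13a and Rpl10a, the last named because it completes the count and not called with its copies added (adjusted p = 0.0165). Rpl12, a protein at the base of the stalk, had 1144.3, 948.5 and 1011.1 normalized counts in control and 2723.3, 1764.6 and 1725.0 in CK666. The groups did not overlap, and the log2 fold change was 1.0 (SE 0.19, adjusted p = 5.59e-07). The copies of Rpl12 alone stood at 28194, 27182 and 28385 in control and at 58993, 32775 and 36640.0 in CK666. With the gene and its copies added together the log2 fold change was 0.63 (adjusted p = 0.00284).

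Rps27a, which encodes a fusion of ubiquitin with a small subunit protein, had 9745.5, 9657.0 and 10050.0 normalized counts in control and 21787, 10848 and 13396 in CK666 (log2 fold change 0.64 with SE 0.21, adjusted p = 0.00752). Rpl13a, known also for a role in silencing inflammatory mRNAs, rose from 11897 ± 873 to 17158 ± 4650.3 (SD, n = 3; log2 fold change 0.53, adjusted p = 0.00852). For both genes CK666 replicate 1 was the highest library by far. Leaving out 1 library at a time kept the call of Rpl12 in 9 of 9 fits and those of Rps27a and Rpl13a in 2 of 9. The count of members called higher was 60 without CK666 replicate 2, 6 (with 4 lower) without CK666 replicate 1, 2 without CK666 replicate 3 or CytoD replicate 1, and 1 without any other library, and the median without CK666 replicate 1 was 0.11.

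With the length trend removed, the median against control was 0.19, and 32 members were called higher (17.2% of all genes) and 2 lower (17.6% of all genes). Rpl12 (0.82), Rps27a (0.43) and Rpl36 (0.37) led the rises. The 2 that were called lower were Rpl7l1 (-0.48), a paralogue of Rpl7 that works in ribosome assembly, and Rpl39l (-0.26), the paralogue of Rpl39 best known from the testis. The curve at the members' lengths was 0.19, and 76 of 84 members lay above the curve, by a median of 0.20. Members and other genes of like length are compared in the plot of median change by length.

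**Figure D3:**
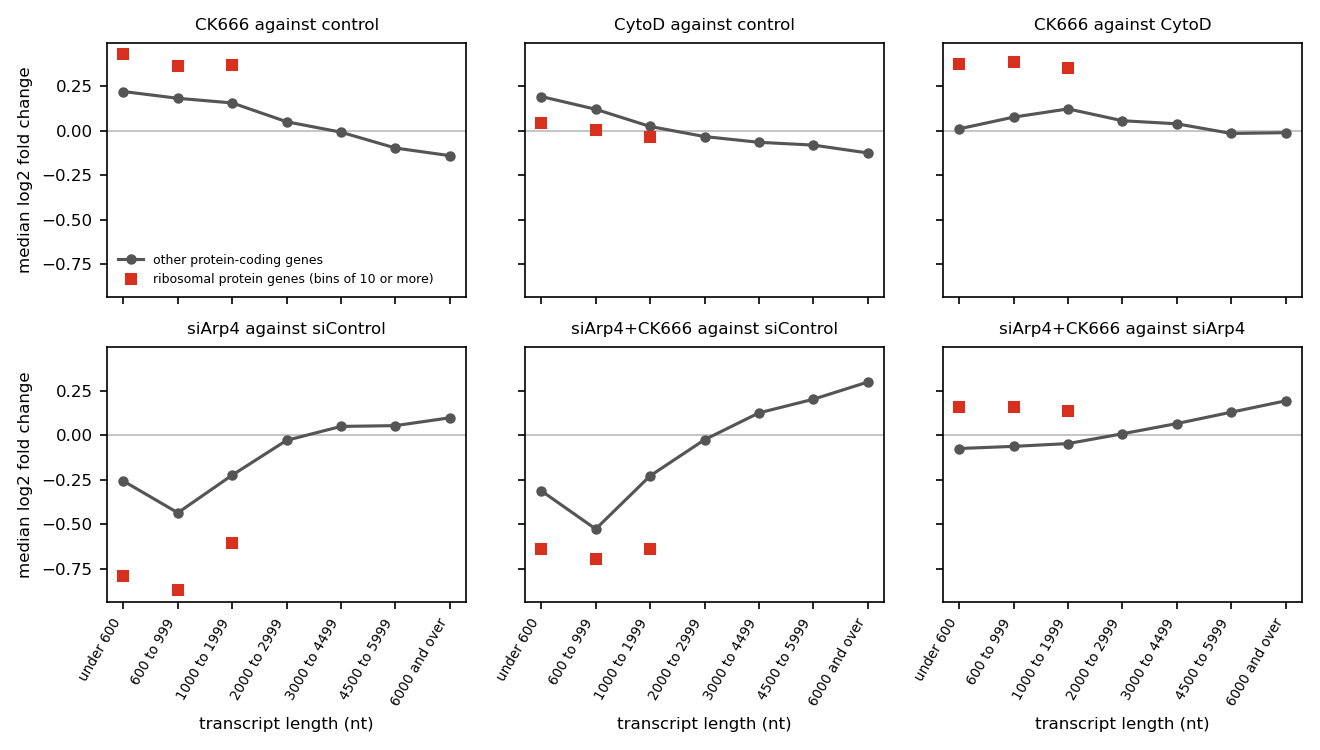
Median log2 fold change by principal transcript length (nt) for other protein-coding genes (dark line) and for ribosomal protein genes in length classes with at least 10 of them (red squares), in 6 comparisons. Members under 600 nt stood at 0.43 for CK666 against control where other genes stood at 0.22, and at -0.79 for siArp4 against siControl where other genes stood at -0.26.

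CytoD changed few members. Against control, 0 of 84 were called higher (13.6% of all genes) and 2 lower (16% of all genes), with 0 and 3 at an unadjusted p below 0.05 and 0 and 2 in edgeR, and the median was 0.01. Rpl7l1 had 2912.5, 2336.1 and 2612.0 normalized counts in control and 1713.2, 1540.1 and 1597.1 in CytoD (log2 fold change -0.70 with SE 0.13, adjusted p = 1.75e-06). Rps19bp1 had 535.9, 429.4 and 457.4 in control and 280.6, 305.9 and 317.4 in CytoD (-0.65, SE 0.17, adjusted p = 0.000813). Neither gene overlapped between the groups. The call of Rps19bp1 was lost without control replicate 1 (adjusted p = 0.0197) or CytoD replicate 1 (0.013), where 1 member was called lower, and 6 were called lower and 1 higher without CK666 replicate 1, which shares the estimate of spread.

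With the length trend removed, CytoD stood lower than control for more members: 16 were called lower (18.4% of all genes) and 1 higher (18.1% of all genes), near or under the share of all genes, and the median was -0.10. Rps19bp1 (-0.75), Rpl7l1 (-0.73) and Rpl12 (-0.52) led the falls, and Rpl13a (0.24) was the rise. Summed with its copies, Rpl12 had a log2 fold change of -0.02 (adjusted p = 0.943) as fitted. Of 84 members 69 lay below the length curve, which was 0.13 at their lengths. The sign of the members' median thus depended on the length trend in this comparison.

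CK666 was also compared with CytoD directly. All 84 members had a fold change above 0, with a median of 0.37 beside -0.03 for all genes, and 5 were called higher (16.9% of all genes) and 0 lower (14.9% of all genes), with 41 and 0 at an unadjusted p below 0.05 and 2 and 0 in edgeR. Rpl12 led at 1.48 on the log2 scale (SE 0.19, adjusted p = 3.59e-14), which fell to 0.66 with its copies added (adjusted p = 0.00175). Rps19bp1 followed (0.98, SE 0.17, adjusted p = 1.58e-07), then Rpl22l1, a paralogue of Rpl22 (0.78, SE 0.24, adjusted p = 0.00359). Rpl18 (0.58) and Rpl4 (0.37) complete the count, and Rps27a was called as well with its copies added (0.60, adjusted p = 0.00411). Rpl22l1 stood at 3089.8, 1591.3 and 1561.3 in CK666 and at 1321.0, 1120.9 and 1197.3 in CytoD, with no overlap.

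With the length trend removed, 50 of 84 members were called higher in CK666 than in CytoD (18.4% of all genes) and 0 lower (19.7% of all genes), with 70 and 0 at an unadjusted p below 0.05. The curve was 0.07 at their lengths and 81 of 84 members lay above it, by a median of 0.31. As fitted, 56 were called higher without CK666 replicate 2, 9 without CK666 replicate 3, 8 (with 1 lower) without CK666 replicate 1, 3 without CytoD replicate 1 and 2 without CytoD replicate 2 or 3. Without CK666 replicate 1 the median was 0.08. The median is given with and without that library because the library also carried the steepest length slope of the first experiment.

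**Figure D4:**
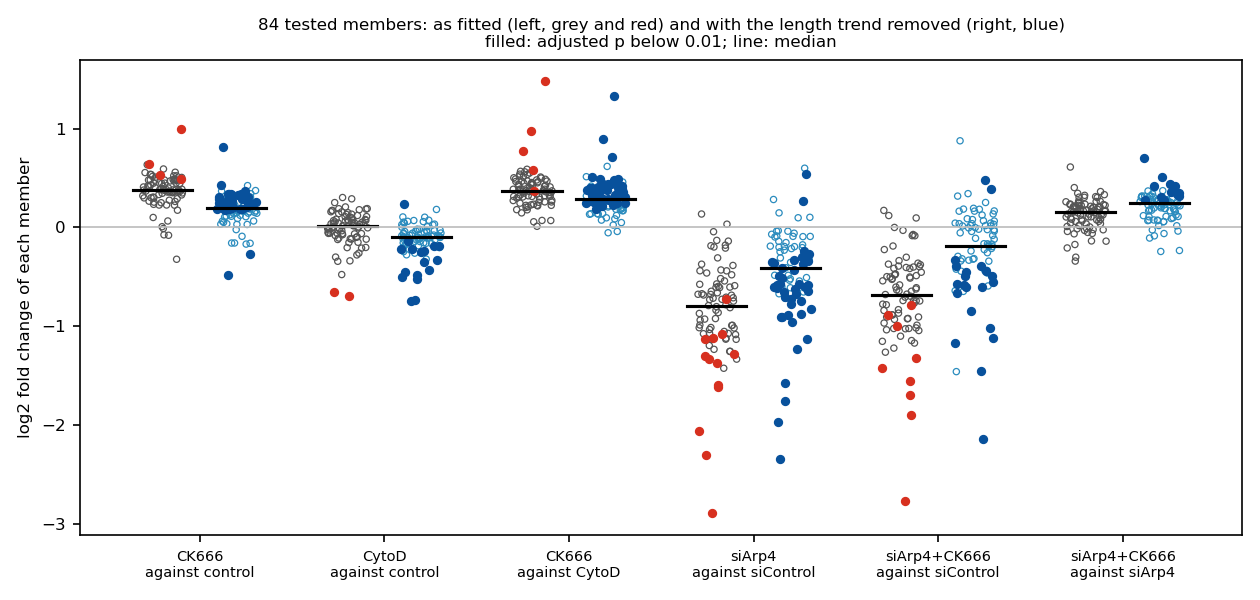
Log2 fold change of each of the 84 tested members in 6 comparisons, as fitted (left in each pair) and with the length trend removed (right); filled points had an adjusted p below 0.01 and lines are medians. Most members lie below 0 for siArp4 against siControl (median -0.80, and -0.41 with the trend removed).

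Knockdown of Arp4 was accompanied by lower levels of members. Against siControl, 13 of 84 were called lower in siArp4 (15.5%, against 13.1% of all genes) and 0 higher (11.9% of all genes). The median was -0.80 beside -0.05 for all genes. At an unadjusted p below 0.05 there were 49 lower and 0 higher, and edgeR called 4 lower and 0 higher. No share of all genes is given for these unadjusted and edgeR counts, so they cannot be set against other genes. Past 2-fold, the limit the study used, 12 were called lower (9.49% of all genes). The share of members called was thus close to that of all genes as fitted.

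Rps26 fell most. It encodes a small subunit protein near the exit channel of the mRNA, and it had 10409, 61786 and 23374 normalized counts in siControl and 4674.9, 4831.2 and 3352.4 in siArp4. The siControl libraries spread over almost their whole range, but the lowest of them still exceeded the highest siArp4 library. The log2 fold change was -2.89 (SE 0.53, adjusted p = 6.72e-07), and -2.34 with the length trend removed.

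Rps27l, a paralogue of Rps27 that is known as a target of p53, had 5261.8, 11208 and 8421.4 normalized counts in siControl and 1766.9, 1767.7 and 1523.9 in siArp4 (log2 fold change -2.30 with SE 0.30, adjusted p = 3.78e-13). Rps16 had 8077.6, 56138 and 20656 in siControl and 7568.5, 7485.4 and 5307.1 in siArp4 (-2.06, SE 0.57, adjusted p = 0.00159). The groups of Rps27l lay far apart, while those of Rps16 nearly touched and its call was lost without siControl replicate 2 (-1.09, adjusted p = 0.0293) or without siArp4 replicate 3.

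Rpl3, a large subunit protein near the catalytic centre, had 22223, 38985 and 30511 normalized counts in siControl and 12446, 12299 and 10825 in siArp4 (log2 fold change -1.37 with SE 0.23, adjusted p = 6.1e-08). Rpl7l1 had 2172.0, 2032.2 and 1888.4 in siControl, the tightest of these groups, and 928.1, 979.4 and 887.7 in siArp4 (-1.12, SE 0.15, adjusted p = 3.61e-12). Neither gene overlapped. Rps26, Rps27l, Rpl3 and Rpl7l1, and with them Rpl27a, which the naming rule does not take and which was chosen after its values were seen (-1.62, adjusted p = 0.000269), were called in 9 of 9 fits that left out 1 library. Their lowest to highest log2 fold changes over those fits were -3.32 to -1.99 for Rps26, -2.55 to -2.03 for Rps27l, -1.56 to -1.16 for Rpl3 and -1.18 to -1.08 for Rpl7l1.

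Others called were Rps20 (-1.59), Rpl10a (-1.33), Rps13 (-1.30), Rpl39 (-1.28), Rpl22l1 (-1.12) and Rpl5 (-0.72), of which those outside the naming rule were chosen after their values were seen. With their copies added Rpl5 (-0.30, adjusted p = 0.264) and Rpl10a (-1.06, adjusted p = 0.0131) lost their calls. Rplp0, the scaffold of the stalk and a common reference gene, was not called: it had 42501, 71448 and 59442 normalized counts in siControl and 61448, 61523 and 54488 in siArp4 (log2 fold change 0.03 with SE 0.23, adjusted p = 0.935).

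The count depended on the siControl libraries. Without siControl replicate 1, 69 members were called lower with a median of -1.13. Without siControl replicate 2, whose share of members was 13.66%, 7 were called with a median of -0.31, and without siControl replicate 3 the count was 8. The count was 6, 6 and 5 without siArp4 replicates 1, 2 and 3. The direction of the median was lower in each of these fits.

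With the length trend removed, 40 of 84 members were called lower (47.6%, against 15.9% of all genes) and 2 higher (15.4% of all genes), with a median of -0.41. At an unadjusted p below 0.05 there were 54 lower and 3 higher. The curve stood at -0.38 at the members' lengths and 73 of 84 members lay below it, by a median of 0.45 on the log2 scale (member minus curve -0.45). Rps26 (-2.34), Rps27l (-1.97) and Rps20 (-1.75) led, although Rps20 was assigned a principal transcript of 3706 nt, the longest of the members. Rps19bp1 (0.54, adjusted p = 0.00081) and Rplp0 (0.27, adjusted p = 0.000468) were the rises. Neither was called when coding length was used in place of transcript length, where 0 members were called higher (Rplp0 0.11, adjusted p = 0.651).

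**Figure D5:**
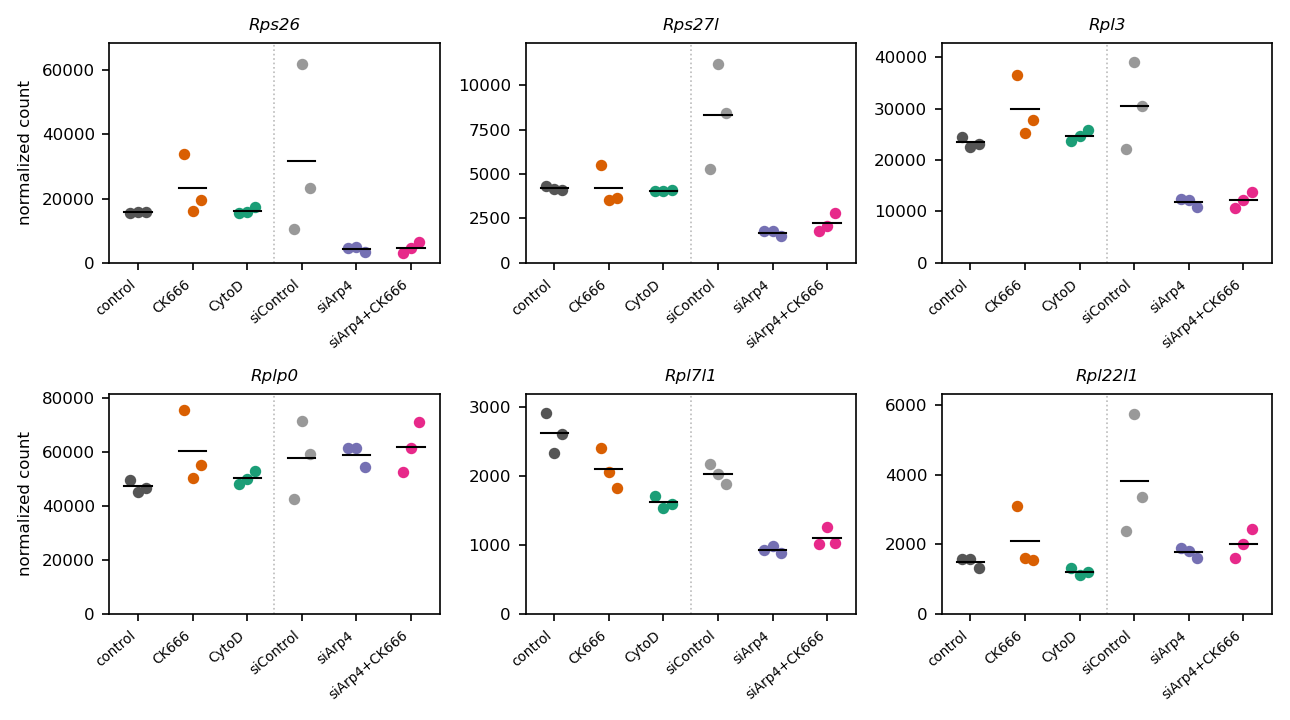
Normalized counts of 6 members in the 18 libraries (points, 3 per group) with group means (lines); counts were scaled within each experiment, which the dotted line separates. Rps26, Rps27l, Rpl3 and Rpl7l1 were lower in all libraries with the Arp4 siRNA than in any siControl library, and Rplp0 was not.

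The libraries given both the Arp4 siRNA and CK666 were set against the same siControl libraries, so this comparison shares its controls with the last. Of 84 members 9 were called lower (10.7%, against 15.8% of all genes) and 0 higher (14% of all genes), 6 of them past 2-fold (12.4% of all genes). The median was -0.69, with 32 lower and 0 higher at an unadjusted p below 0.05, and edgeR called 4 lower and 0 higher. Rps26 had 3051.6, 4525.1 and 6473.6 normalized counts (log2 fold change -2.77 with SE 0.53, adjusted p = 1.73e-06). Rps27l had 1788.0, 2089.0 and 2814.8 (-1.90, SE 0.30, adjusted p = 2.53e-09). Both remained under every siControl library.

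Rps16 (-1.70, adjusted p = 0.00979) and Rpl36al (-1.42, adjusted p = 0.00427), a paralogue of Rpl36a, were called although their groups overlapped, and Rpl3 stood at 10650.0, 12250.0 and 13809 (-1.32, adjusted p = 1.33e-07). The call of Rps16 was lost without siControl replicate 2 (-0.72, adjusted p = 0.163), held in 2 of 9 such fits, and was lost with its copies added (-1.57, adjusted p = 0.0168). Rpl27a (-1.56), Rpl7l1 (-0.89) and Rpl5 (-0.78) were also called, and Rpl5 lost its call with its copies added (-0.14, adjusted p = 0.622). Without siControl replicate 1, 54 members were called lower, and without siArp4+CK666 replicate 1 or 2 the count was 5. Without siControl replicate 2, 7 were called lower and the median was -0.11.

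Part of this difference ran with length, and how much depended on the length measure. Of the median of -0.69, the curve at the members' lengths held -0.50. It held -0.31 with length bins, -0.37 with exon union length and -0.28 with coding length. The median with the transcript length trend removed was -0.18, with 19 called lower (19.2% of all genes) and 2 higher (17.6% of all genes). The share of members called lower, 22.6%, was close to that of all genes. Members lay below the curve in 56 of 84 cases and above it in 28, and 75 lay below it with coding length. Rplp0 (0.39) and Rps19bp1 (0.48) were again the rises, and with coding length 0 members were called higher.

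CK666 on top of the Arp4 siRNA gave no called member as fitted. Against siArp4, 0 of 84 were called higher (3.82% of all genes) and 0 lower (6.07% of all genes), 0 in either direction passed an unadjusted p below 0.05, and edgeR called 0. The median was 0.16 and turned to -0.07 without siArp4+CK666 replicate 3. With the length trend removed 13 were called higher (5.6% of all genes) and 0 lower (8.51% of all genes), with a median of 0.24. Rps27a led them with 10985, 11635 and 9392.8 normalized counts in siArp4 and 12466, 15474 and 20992 with CK666 added, groups that did not overlap (0.61 as fitted, adjusted p = 0.372, and 0.70 with the trend removed, adjusted p = 1.47e-07). Rps27l (0.51) and Rpl39 (0.44) followed. Of 84 members 77 lay above the curve. With coding length 75 lay above it and only 2 were called higher.

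The effect of CK666 in knockdown cells was tested against its effect in untransfected cells in a fit of all 18 libraries. Of 84 members 1 was called lower (4.06% of all genes) and 0 higher (3.76% of all genes), with 1 in each direction at an unadjusted p below 0.05 and 0 in edgeR. This was Rpl12, which rose with CK666 in untransfected cells and stood at 967.6, 910.3 and 807.5 normalized counts in siArp4 and 664.0, 641.9 and 874.7 with CK666 added (difference of effects -1.30, SE 0.35, adjusted p = 0.00324). With its copies added the difference was -0.56 (adjusted p = 0.395), and the call held in 11 of 18 fits that left out 1 library. It was lost without control replicate 2 or 3, CK666 replicate 1, siArp4 replicate 1 or 2, or siArp4+CK666 replicate 1 or 2. With the length trend removed, Rps27l (0.69, adjusted p = 6.71e-05) and Rpl30 (0.29) were called higher (5.36% of all genes) and Rpl12 (-1.05) lower (5.78% of all genes). The members' median difference was -0.25 as fitted and 0.04 with the trend removed, or -0.07 with the coding length trend removed.

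Several members have a paralogue that is also a member. In control Rpl22 stood at 917 per length and Rpl22l1 at 265, and against siControl in siArp4 they had log2 fold changes of -0.71 (adjusted p = 0.0746) and -1.12 (0.00268). Rpl39 and Rpl39l had -1.28 (adjusted p = 0.00217) and -0.38 (0.337), and Rpl7 and Rpl7l1 had -0.14 (0.707) and -1.12 (3.61e-12). Rpl36a and Rpl36al had -0.59 (0.164) and -1.08 (0.0402). The difference within a pair was not tested. Rps27, at 48.62, 582.2 and 135.4 normalized counts in siControl and 523.0, 57.23 and 119.2 in siArp4, varied too much to compare with Rps27l.

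The other proteins of the stalk resembled the bulk of members more than Rplp0 did. Rplp1 had 24944, 97473 and 46224 normalized counts in siControl and 37931, 36452 and 30652 in siArp4 (-0.68, adjusted p = 0.224). Rplp2 had 10836, 83495 and 26051 in siControl, 17979, 18637 and 13857 in siArp4 (-1.25, adjusted p = 0.082). Rpsa, a small subunit protein also known as the laminin receptor, had a log2 fold change of -0.81 (adjusted p = 0.192). In all 3 genes siControl replicate 1 was below all siArp4 libraries and siControl replicate 2 far above them, so the groups overlapped. Rpl11, the partner of Rpl5 in the 5S particle, had -0.46 (adjusted p = 0.287). Fau, a fusion of a ubiquitin-like protein with a small subunit protein that lies outside the rule, had -0.95 (adjusted p = 0.134) in siArp4 and 0.45 (0.0467) in CK666.

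The 24 members with a pyrimidine run at the start had a median of -0.93 in siArp4 against siControl, with 4 called lower. The 40 tested members without a run had -0.71, with 6 called lower. Of all genes 13.1% were called lower in this comparison. For CK666 against control the medians were 0.45 and 0.36. These are descriptions and the difference was not tested.

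Genes that work with the ribosome were counted by lists. Ribosome biogenesis (24 genes such as Myc, Ncl and Fbl) had 23 called lower (16% of all genes) and 0 higher (13.6%) in CytoD against control. The median was -1.31, and 24 of 24 were higher in CK666 than in CytoD (16.9% of all genes). Dkc1, the pseudouridine synthase of ribosomal RNA, fell most in CytoD (-2.11). Against siControl 9 were called higher (11.9% of all genes) and 0 lower (13.1%) in siArp4 (median 0.29). Myc led them (2.07, adjusted p = 4.61e-27), the transcription factor that drives ribosome production. The list thus stood higher in siArp4 where the members stood lower.

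The 7 noncoding snoRNA hosts with a TOP start were called higher in CK666 against control in 7 of 7 cases (15.3% of all genes). Their median was 1.18, led by Snhg12 (2.17). Gas5, the best known of them, had 1769 to 1902 normalized counts in control and 5750, 3089 and 3482 in CK666. Against siControl 5 of 7 were called lower in siArp4 (13.1% of all genes), with a median of -1.16, led by Zfas1 (-2.04). In CytoD against control 3 of 7 were lower (16% of all genes). TOP mRNAs of translation other than ribosomal proteins (24 genes) had 6 higher and 0 lower in CK666 (15.3% and 14.7% of all genes). In CytoD there were 1 higher and 9 lower (13.6% and 16% of all genes). In siArp4 there were 3 higher and 7 lower (11.9% and 13.1% of all genes), and Eif2s3x fell most (-1.73). Of 17 regulators of mTOR and TOP mRNAs, 3 were called higher and 3 lower in CK666, close to the shares of all genes (15.3% and 14.7%), with Ddit4, a stress-induced brake on mTOR, rising most (1.56).

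Nuclear genes of oxidative phosphorylation are about as short as the members (median 681.5 nt) and show how the length trend acts on another list. Of 77 tested, 0 were called higher (11.9% of all genes) and 8 lower (13.1%) in siArp4. Their median was -0.44 as fitted and -0.06 with the length trend removed, where the members kept -0.41. In siArp4+CK666 the medians were -0.45 and -0.00 and those of the members -0.69 and -0.18. Mitochondrial ribosomal proteins (78 genes) had 15 called higher and 1 lower in CK666 (median 0.27), beside 15.3% and 14.7% of all genes. There were 1 and 8 in CytoD, beside 13.6% and 16%. In siArp4 there were 5 and 8, beside 11.9% and 13.1% of all genes (median -0.33, and -0.10 with the trend removed).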

How the data were processed

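The authors quantified RNA-seq reads with Salmon 1.2.1 on GENCODE vM25 transcripts (GRCm38), and the deposited values are estimated counts per gene in 18 libraries. How transcripts were summed to genes is not given in the sources used here. Counts were treated as unstranded, so overlapping genes may not be told apart where they share sequence. Symbols and lengths came from GENCODE vM21, in which 54094 gene IDs matched and 253 did not, and 0 columns lacked a sample. Counts were rounded and tested per experiment with DESeq2 1.42.0 (Wald test, Benjamini-Hochberg adjustment over all genes tested, R 4.3.3), with edgeR 4.0.16 as an alternative. Every adjusted p is from DESeq2 unless edgeR is named. Normalized counts are counts divided by size factors. The length trend was removed with a smooth curve of other coding genes over principal transcript length in each library, used as an offset. Scripts were checked on simulated data. Tables and figures used Python 3.11.15, pandas 2.3.3 and matplotlib 3.10.9.

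The members, lists and tests were chosen with earlier results of these data known. The genes named are the 3 largest rises and falls called in each comparison at a mean count of at least 100, paralogue pairs, stalk proteins and Rpsa, Rpl5 and Rpl11, ubiquitin fusions, the 3 highest and lowest per length, Rps19bp1, Actl6a and the largest change of each context list. Others were named after their values were seen, and some genes that the rule takes are not reported here. Alternatives with coding length and with single-exon copies added were chosen after seeing the data. Replicate numbers were shared between groups, but the labels do not say that a number marks a shared culture. For CK666 against control, same-numbered libraries deviated together weakly (r = 0.24, 0.18 and 0.10). CK666 replicate 3 and control replicate 2 also had r = 0.10, so this does not show that a number marks a shared culture. Every comparison was also fitted with the number as a block.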

Additional observations from a re-analysis of the deposited data

Results flagged for a closer look

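The effect of CK666 on Rpl12 differed between knockdown and untransfected cells in a test of the difference itself, by -1.30 on the log2 scale (SE 0.35, DESeq2 adjusted p = 0.00324). It was called lower in 11 of 18 fits that left out 1 library, and the difference was -0.56 (adjusted p = 0.395) with the counts of its single-exon copies added.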

How the results depend on the processing

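Counts of members called higher and lower moved with the length trend, the tool, the libraries fitted together and single libraries, and the cause was not tested. Shares of all genes are not given beside the counts in this section. In edgeR, 1 was called higher for CK666 against control and 2 for CK666 against CytoD, 4 lower for siArp4 and 4 lower for siArp4+CK666 against siControl, and 0 lower for the difference of CK666 effects. With all 18 libraries in one fit the numbers were 1, 2, 24 and 19, with 1 lower for CytoD against control. With the transcript length trend removed they were 32 higher and 2 lower (CK666 against control), 1 and 16 (CytoD against control, median -0.10), 50 higher (CK666 against CytoD), 2 and 40 (siArp4), 2 and 19 (siArp4+CK666 against siControl), 13 higher (against siArp4) and 2 higher (difference of effects). With coding length in its place they were 22 and 1, 6 lower, 32 higher, 30 lower, 18 lower, 2 higher and 2 higher. With copies added and the length trend removed they were 36 and 2, 1 and 15 (median -0.10), 51, 2 and 39, 2 and 17, 14 higher, and 2 and 0. With copies added alone, 0 were lower for the difference of effects.

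In fits with the replicate block, 8 members were called higher for CK666 against CytoD, 5 for CK666 against control and 1 for the difference of effects. The replicate block with the length trend removed gave 23 and 1, 12 lower (median -0.10, 0 higher), 49 higher, 1 and 36, 1 and 18, 8 higher and 2 higher. Outside CK666 against control, the same-numbered libraries did not all deviate together. Under the block Rpl5 lost its call in siArp4 (-0.69, adjusted p = 0.0142) and Rps16 lost its own in siArp4+CK666, while Rpl12 (CytoD against control) and Rpl7l1 (CK666 against CytoD and the difference of effects) gained a call.

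The members minus the length curve were 0.27 with coding length (CK666 against control), -0.073 with a mean count of at least 500, -0.062 with exon union length and -0.027 with coding length (CytoD against control), -0.59 and -0.43 with coding length (siArp4 and siArp4+CK666 against siControl), and -0.011 and -0.057 with union and coding length (difference of effects). With pseudogenes added the members' share was 5.28% in control and 5.67% in CytoD, and the median level per union length was 891.

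With 1 library left out at a time, the members called higher numbered 1 to 60 for CK666 against control (0 to 4 lower, median 0.11 to 0.55), 0 to 1 for CytoD against control (1 to 6 lower, median -0.01 to 0.04) and 2 to 56 for CK666 against CytoD (0 to 1 lower, median 0.08 to 0.54). Those called lower numbered 5 to 69 for siArp4 (median -1.13 to -0.31) and 5 to 54 for siArp4+CK666 against siControl (median -0.97 to -0.11), and 0 to 1 for the difference of effects. In these fits Rpl36al ranged from -0.33 to 0.28 and Rps27l from -0.23 to 0.13 for CK666 against control, and Rps27l from -0.18 to 0.18 for CK666 against CytoD, each reversed without CK666 replicate 1. Of called values of named genes, 425 stayed called in the same direction and 87 were no longer called. The mean counts of Rps27 and Rpl3l were 153 and 0.40, and Rps27 had an SE of 1.31 for siArp4 against siControl.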
